A study of Mus musculus with 5 samples.

Results

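Transcripts of 7 genes of B lymphocytes and of the antibodies they make were followed across 5 pools of whole mouse lung RNA, each hybridised to 1 oligonucleotide array. The B cell genes were Cd79a, Cd79b, Ms4a1 and Cd22, and the genes set against them as plasma cell genes were Igha, Ighm and Jchain. They were taken through every probe set that the platform annotation gives to 1 of these genes and to no other, which left 21 probe sets out of 22626 on the table, 20380 of which map to a single gene; the 7 genes are among 12393 so named. Of the 21 probe sets, 6 belonged to B cell genes and 15 to plasma cell genes (3 for Igha, 11 for Ighm and 1 for Jchain). A further 4 probe sets that name a member together with other genes were not taken, and none of these was above the noise floor in any pool.

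The induced pool came from SM22-tet-BMPR2delx4+ mice on doxycycline, in which the smooth muscle promoter SM22 drives a doxycycline-dependent switch for a dominant-negative form of BMPR2, a receptor for bone morphogenetic proteins. Its right ventricular pressure was 50 ± 8 mmHg, the kind of error not being stated. FVB/N mice kept for 4 weeks in hypoxia, 8 weeks old, gave the hypoxic pool, with the same pressure. The other pools were at 30 ± 3 mmHg: SM22-rtTA mice, which carry the switch without the mutant receptor, on doxycycline; SM22-tet-BMPR2delx4+ mice without doxycycline, called uninduced below; and wild-type FVB/N mice aged 8 weeks. For the transgenic pools 8 weeks may be an age or a length of treatment. The number of animals pooled, their sex and the strain of the transgenic mice are not stated. The matched comparisons are induced against uninduced, which share the genotype, and hypoxia against wild type, which share the strain. With 1 array per condition there is no replicate spread, so values and folds are given without any test.

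A B cell carries its antigen receptor as a membrane antibody held by the signalling pair CD79A and CD79B. On stimulation some B cells become plasma cells, which stop displaying most of this receptor machinery and secrete antibody in bulk. In airways the antibody is largely IgA, whose heavy chain constant region is encoded by Igha; the joining chain links IgA and IgM units so that the epithelial receptor encoded by Pigr can carry them to the surface. Ighm encodes the heavy chain of IgM, which resting B cells hold in their membrane and plasma cells can secrete, so it does not separate the cell types. The members were picked with earlier results on these arrays in view, among them a low Igha in both elevated-pressure pools, so what follows is a description.

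The stretches before the transcription starts are shown for the genes whose sequences were at hand, since such stretches can hold motifs through which B cell factors are known to act. RefSeq promoter sequences (GRCm38.p6) were at hand for 3 of the 7 genes and are given for the 250 bases before the start, read 5′ to 3′ on the gene's own strand. The Cd79a stretch lies at chr7:24897247-24897496 on the plus strand, that of Cd22 at chr7:30879029-30879278 on the minus strand and that of Jchain at chr5:88527898-88528147 on the minus strand. Capitals mark matches, on either strand, to 3 motifs known from B cell promoters: the octamer ATGCAAAT, the EBF motif CCCNNGGG and the PU box GAGGAA.
Cd79a: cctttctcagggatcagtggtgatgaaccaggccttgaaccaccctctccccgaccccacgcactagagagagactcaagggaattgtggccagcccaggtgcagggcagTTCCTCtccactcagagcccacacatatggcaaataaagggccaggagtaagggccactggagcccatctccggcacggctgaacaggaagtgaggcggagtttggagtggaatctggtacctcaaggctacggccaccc
Cd22: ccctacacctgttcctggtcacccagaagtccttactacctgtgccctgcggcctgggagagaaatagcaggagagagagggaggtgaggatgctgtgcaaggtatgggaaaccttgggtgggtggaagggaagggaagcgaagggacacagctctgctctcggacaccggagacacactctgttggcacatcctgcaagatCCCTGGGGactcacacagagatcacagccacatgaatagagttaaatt
Jchain: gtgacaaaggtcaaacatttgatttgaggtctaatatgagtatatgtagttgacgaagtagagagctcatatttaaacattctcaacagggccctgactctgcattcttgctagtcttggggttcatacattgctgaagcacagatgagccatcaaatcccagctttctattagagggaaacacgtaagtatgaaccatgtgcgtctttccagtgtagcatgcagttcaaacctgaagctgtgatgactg
Cd79a held 1 PU box, read on the opposite strand, its match starting 140 bases before the start. Cd22 held 1 EBF motif, starting 48 bases before it, and the Jchain stretch held none of the 3 motifs. Over all 32851 promoter entries of this length, 23.3% held a PU box, 11.8% an EBF motif and 1.60% an octamer. The motifs do not overlap in these stretches, and a match is only a run of letters.

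Intensities are given after scaling the arrays to one another, and a scaled intensity of 276 serves as noise floor; lower values are called below the floor and are not ranked. A fold with 1 pool below the floor is a bound, written "at least". A probe set above the floor in at least 1 pool is called measured, which held for 12769 single-gene probe sets and for 14 of the 21 members. The 7 members below the floor everywhere were 5 of Ighm and 1 each of Ms4a1 and Cd22, with highest values of 74.4 to 161. They were Ms4a1 1450912_at, Cd22 1419769_at and Ighm 1425324_x_at, 1426196_at, 1427756_x_at, 1427869_at and 1451949_at. The measured member nearest to the floor was Ighm 1452535_at, at 313 in hypoxia and below the floor elsewhere. Since a member high in a single pool passes this filter through that pool, the measured probe sets do not stand for the whole set.

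All 10 lung markers, such as surfactant protein C, were above the floor in every pool, with summed intensities between 58877 and 72722. Markers of other tissues set some pools apart. The 8 kidney markers summed to 49025 in wild type and to between 1103 and 2646 in the other pools. The 8 skeletal muscle markers summed to 57632 in the induced pool, 15421 in hypoxia and at most 3288 in the normal-pressure pools. Upper airway and oesophagus markers (9 of 11 measured) summed to 13440 in the induced pool, 21262 in hypoxia and at most 5437 elsewhere. They did not move as 1 group. In hypoxia against wild type 4 were at least 2-fold higher, namely Krt4, Krt13, Krtdap and Sprr3. The 2 that were lower were Bpifa1 (703 against 2555) and Bpifb1 (405 against 1176). Over all measured genes 1.47% were higher and 6.65% lower. The part of these differences in the results below was not tested, and hypoxia is therefore also set against the transgenic normal-pressure pools, which leaves wild type out.

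Cd79a, Cd79b and Ms4a1 were highest in the SM22-rtTA pool, which had normal pressure, and below the floor in wild type. Cd79a, which encodes the alpha chain of the receptor's signalling pair, was at 478 in the induced pool, 427 in hypoxia, 1792 in SM22-rtTA and 385 in the uninduced pool, and below the floor in wild type. The SM22-rtTA value stood 3.75-fold above the next pool and at least 6.49-fold above wild type. The other chain, Cd79b, was at 390.1 in the induced pool, 844 in SM22-rtTA and 302 in the uninduced pool, and below the floor in hypoxia and wild type. Ms4a1, the gene of the B cell surface protein CD20, had the same order, with 495 in the induced pool, 1277 in SM22-rtTA and 361 in the uninduced pool, and values below the floor in hypoxia and wild type. The second Ms4a1 probe set, 1450912_at, was below the floor in every pool. In whole lung, fewer B cells and less of these transcripts per cell cannot be told apart.

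**Figure D1:**
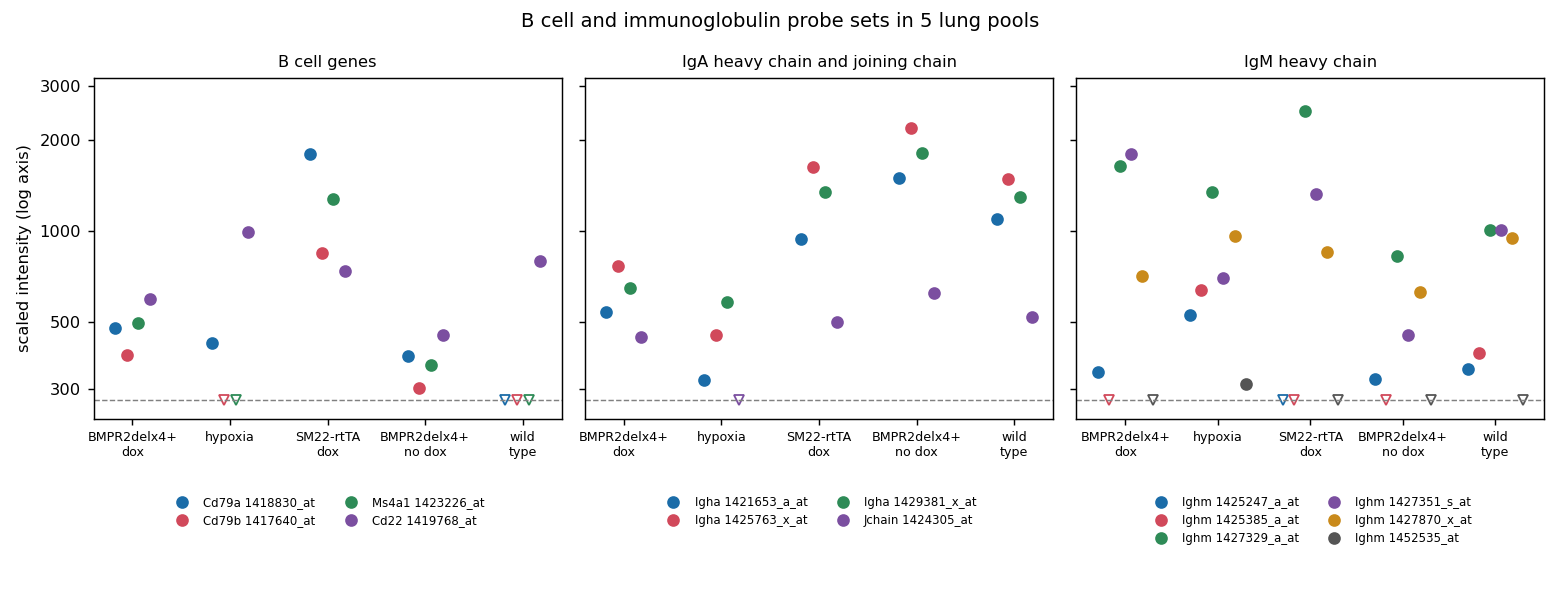
Scaled intensity (log axis) of the 14 measured probe sets in 5 lung pools, 1 array each; filled circles are values above the noise floor of 276 (dashed line) and open triangles on the line are values below it. Cd79a, Cd79b and Ms4a1 peak in SM22-rtTA, the 3 Igha probe sets are lowest in the induced and hypoxic pools, and the Ighm probe sets follow no single order.

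Among normal-pressure pools these 3 genes thus differed more than in either matched comparison. SM22-rtTA against the uninduced pool gave 4.66-fold for Cd79a, 3.54-fold for Ms4a1 and 2.79-fold for Cd79b, all higher, where 1.32% of measured probe sets were at least 2-fold higher and 0.666% lower. Against wild type the folds in SM22-rtTA were at least 6.49, 4.62 and 3.06 in the same order, on a background of 3.3% higher and 8.11% lower. Against wild type, below the floor for all 3 genes, the uninduced pool was at least 1.39-fold higher for Cd79a, 1.31-fold for Ms4a1 and 1.09-fold for Cd79b. Being bounds, these folds do not show how near the 2 pools were. At least 2-fold higher in that comparison were 2.93% of measured probe sets, and 7.47% were lower. The single member past 2-fold there was Ighm 1427351_s_at, 2.22-fold lower in the uninduced pool. No elevated-pressure value lay outside the normal-pressure range for these 3 genes, with hypoxia below the floor, as wild type was, for Cd79b and Ms4a1. The order of pools thus did not follow pressure.

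The SM22-rtTA pool was at least 2-fold above every other pool in 46 probe sets of 45 genes, 0.36% of those measured, and Cd79a, Cd79b and Ms4a1 were among them. That group also held other genes used by B cells, which were picked out after the values were seen. Cd37, a tetraspanin of mature B cells, was at 416 in the induced pool, 431 in hypoxia, 980.1 in SM22-rtTA and 351 in the uninduced pool, and below the floor in wild type. Spib, an ETS-family factor of B cells, reached 568 in SM22-rtTA and was below the floor in the other 4 pools, so that it counts as measured through SM22-rtTA alone. The heavy chain variable segment Ighv14-2 was at 518, 289, 1042 and 361 in the induced, hypoxic, SM22-rtTA and uninduced pools and below the floor in wild type. H2-DMb2, whose product loads peptides onto MHC class II molecules, was at 716 in SM22-rtTA and 305 in hypoxia and below the floor elsewhere. The group also included the actin linker vinculin (Vcl, 1062 in SM22-rtTA) and the receptor gene Tgfbr2 (1654 in SM22-rtTA). All of this rests on a single array.

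Cd22, an inhibitory receptor of B cells that binds sialic acid, did not share the order of the other B cell genes. Its measured probe set was at 595 in the induced pool, 991 in hypoxia, 737 in SM22-rtTA, 452 in the uninduced pool and 796 in wild type. It was therefore highest in hypoxia, and its value in SM22-rtTA was 1.08-fold under that in wild type. The other Cd22 probe set was below the floor in every pool. Hypoxia and wild type stood above the other 3 pools in 4 measured members, Cd22 and Ighm 1425247_a_at, 1425385_a_at and 1427870_x_at, while 17.8% of all measured probe sets had that order.

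Set against the uninduced pool, the induced pool had all 4 measured B cell probe sets a little higher, none by 2-fold. The folds were 1.24 for Cd79a, 1.29 for Cd79b, 1.37 for Ms4a1 and 1.32 for Cd22, with a median log2 ratio of 0.38 against 0.00 over all 12769 measured probe sets. Against SM22-rtTA, which shares doxycycline, the sign was the opposite: Cd79a was 3.75-fold, Ms4a1 2.58-fold and Cd79b 2.16-fold lower in the induced pool, with a median over the 4 probe sets of -1.24. At least 2-fold lower were 3.05% of measured probe sets in that comparison and 2.72% were higher. The direction for B cell genes after induction therefore depended on which normal-pressure pool was the reference.

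In the matched comparison for hypoxia, Cd79b and Ms4a1 were below the floor on both sides and Cd79a in wild type, while Cd22 was above it on both. Cd79a was at least 1.55-fold higher than in wild type, Cd22 was 1.24-fold higher, and no fold can be given for Cd79b and Ms4a1. With those 2 entered as no difference, the median log2 ratio was 0.16. Against the mean of the transgenic normal-pressure pools, Ms4a1 was at least 2.46-fold and Cd79b at least 1.83-fold lower, Cd79a 1.95-fold lower and Cd22 1.72-fold higher. Wild type and the transgenic mean thus gave opposite signs for Cd79a. The 2 transgenic pools did not share that sign: hypoxia, at 427, was under SM22-rtTA (1792) but above the uninduced pool (385).

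Igha had another order: it was lowest in the elevated-pressure pools in each of its 3 probe sets. Probe set 1421653_a_at was at 539 in the induced pool and 322 in hypoxia, against 937 in SM22-rtTA, 1493 in the uninduced pool and 1095 in wild type. Probe set 1429381_x_at was at 646 and 582 in these elevated-pressure pools, against 1339, 1811 and 1296 in SM22-rtTA, uninduced and wild-type lungs. The brightest, 1425763_x_at, was at 768 and 453, against 1624, 2178 and 1477.5 in the same order. No elevated-pressure value reached any normal-pressure value of its probe set, and the normal-pressure pools spanned no more than 1.59-fold. The 3 probe sets read the same constant region gene and are not independent, and those ending in _x_at can by their design pick up related sequences.

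The folds for Igha differed little between its probe sets for induction and more for hypoxia. The induced pool was 2.77-fold to 2.84-fold lower than the uninduced pool, where 0.431% of measured probe sets were at least 2-fold lower and 1.57% higher. Hypoxia was 2.23-fold to 3.40-fold lower than wild type, where 6.71% were lower and 1.21% higher. With the other references the induced pool was 1.74-fold to 2.11-fold lower than SM22-rtTA, and hypoxia 2.68-fold to 4.15-fold lower than the mean of the transgenic normal-pressure pools. In that last comparison 0.572% of measured probe sets were at least 2-fold lower and 2.97% higher. The matched comparisons share no array, and 10 probe sets of 8 genes (0.0783%) were at least 2-fold lower in both, the 3 of Igha among them. With the noise floor at the 70th percentile the log2 ratio of 1421653_a_at in hypoxia against wild type was -0.98, just short of 2-fold. Since the members were picked partly for this pattern, these shares are background only.

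**Figure D2:**
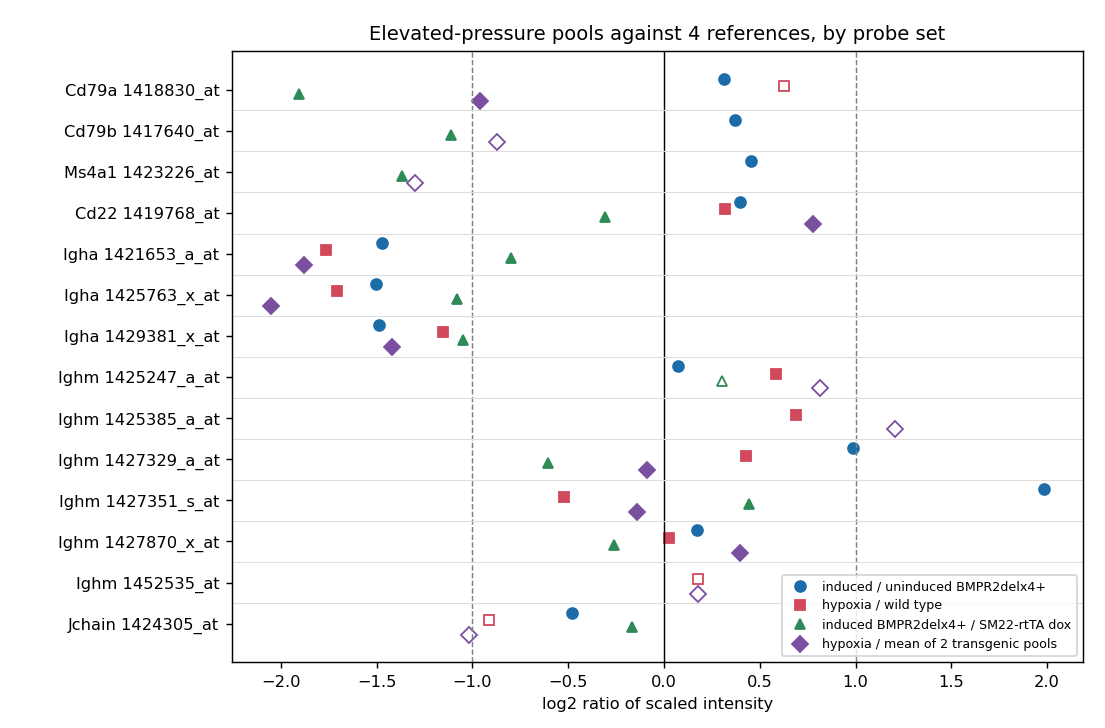
Log2 ratio of scaled intensity for each measured probe set in 4 comparisons, elevated-pressure pool over its reference; open symbols are bounds with a pool below the noise floor, and probe sets with all pools of a comparison below the floor have no symbol. Dashed lines mark 2-fold; Igha lies left of 0 in all 4 comparisons, while Cd79a, Cd79b and Ms4a1 change side with the reference.

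Jchain, the gene of the joining chain, was also lowest in the elevated-pressure pools, with smaller differences. It was at 448 in the induced pool and below the floor in hypoxia, against 502 in SM22-rtTA, 624 in the uninduced pool and 521 in wild type. Both elevated-pressure values lay under all 3 normal-pressure values, which differed by up to 1.24-fold. The induced pool was 1.39-fold lower than the uninduced and 1.12-fold lower than SM22-rtTA, and hypoxia was at least 1.89-fold lower than wild type and at least 2.03-fold lower than the mean of the transgenic pools. Of the 14 measured members, 4 (Igha and Jchain) had both elevated-pressure pools under all normal-pressure pools, as did 5.38% of all measured probe sets. Low Igha in both pools was known when the members were picked, and its probe sets are not independent. The share is therefore background only.

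The 6 measured Ighm probe sets did not share an order of pools. In the induced against the uninduced pool 4 were higher and 0 lower, the rest being below the floor on both sides. Over all 12769 measured probe sets 5362 were higher and 5405 lower. In hypoxia against wild type 5 were higher and 1 lower, against 6467 and 5232 over all. Probe set 1427329_a_at was at 1633 in the induced pool, 1348 in hypoxia, 2482 in SM22-rtTA, 825 in the uninduced pool and 1003 in wild type, so it peaked in SM22-rtTA as Cd79a did. It was 1.98-fold higher in the induced than in the uninduced pool and 1.34-fold higher in hypoxia than in wild type. Probe set 1427351_s_at was at 1795 in the induced pool, 700.4 in hypoxia, 1319 in SM22-rtTA, 453 in the uninduced pool and 1005 in wild type. It was 3.96-fold higher in the induced than in the uninduced pool and 1.43-fold lower in hypoxia than in wild type, and its ending _s_at marks probes shared by several transcripts. The uninduced pool was the lowest of the 5 in both, whereas it was the highest for Igha and Jchain.

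The remaining Ighm probe sets were dimmer or flatter. Probe set 1427870_x_at ranged from 629 to 962, a 1.53-fold span. Probe set 1425247_a_at was at 341 in the induced pool, 526 in hypoxia, 324 in the uninduced pool and 351 in wild type, and below the floor in SM22-rtTA. Probe set 1425385_a_at was at 638 in hypoxia and 395 in wild type and below the floor in the 3 transgenic pools. It was at least 2.31-fold higher in hypoxia than in the transgenic normal-pressure pools, the single member at least 2-fold higher there. For Ighm as a gene, the sign of the hypoxic difference from wild type thus differed between probe sets, and was as small as 1.02-fold in 1427870_x_at.

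Placed side by side, Cd79a, Cd79b and Ms4a1 separated the pools in a different way from Igha. Cd22 was left out here, a choice made after the values were seen. It did not share their order, at 737 in SM22-rtTA, 796 in wild type and 991 in hypoxia. The mean of Cd79a, Cd79b and Ms4a1, on the log2 scale and centred over the 5 pools, was 0.026 in the induced pool, -0.48 in hypoxia, 1.49 in SM22-rtTA, -0.35 in the uninduced pool and -0.68 in wild type. The mean of the Igha probe sets was -0.58 in the induced pool, -1.13 in hypoxia, 0.40 in SM22-rtTA, 0.91 in the uninduced pool and 0.41 in wild type. The uninduced pool, which had the most Igha, was low in Cd79a, Cd79b and Ms4a1. The induced pool stood close to the middle in those genes, with low Igha. SM22-rtTA and wild type were level in Igha and at opposite ends in the mean of Cd79a, Cd79b and Ms4a1, but not in Cd22.

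**Figure D3:**
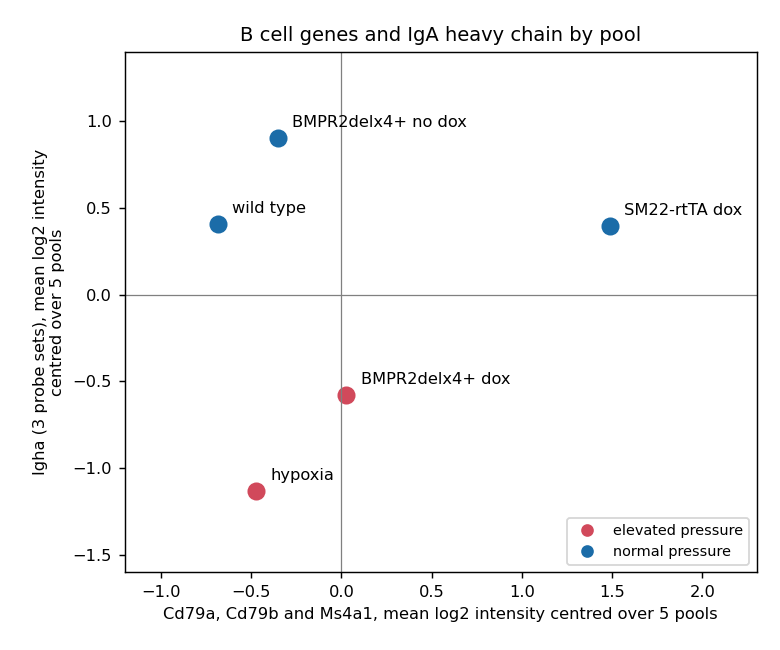
Mean log2 intensity of Cd79a, Cd79b and Ms4a1 (x axis) and of the 3 Igha probe sets (y axis) in each pool, both centred over the 5 pools, with values below the noise floor set to it. The elevated-pressure pools (red) lie at -0.58 and -1.13 on the Igha axis and the normal-pressure pools (blue) at 0.40 to 0.91. The x axis is led by SM22-rtTA at 1.49 and leaves out Cd22, which had another order.

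Over all measured probe sets of the plasma cell genes, the median log2 ratio was 0.00 for the induced against the uninduced pool and -0.25 for hypoxia against wild type. These medians mix Ighm with the other genes. For Igha and Jchain alone, a division made after the values were seen, they were -1.48 and -1.43, and for Ighm 0.12 and 0.30. The median of all measured B cell probe sets minus that of all measured plasma cell probe sets was 0.38 for induced against uninduced and 0.41 for hypoxia against wild type. The value of 0.41 rests on Cd79b and Ms4a1 entered as no difference, since both were below the floor on both sides. With the other references it was -1.03 for induced against SM22-rtTA and -0.80 for hypoxia against the transgenic mean. With Cd22 and Ighm left out, a choice made after the values were seen, the difference was 1.85 for induced against uninduced, -0.44 for induced against SM22-rtTA and 0.69 for hypoxia against the transgenic mean, so its sign in the last of these turned with the choice of genes. For hypoxia against wild type that version gives no comparison, since 2 of its 3 B cell probe sets were below the floor on both sides.

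Other genes of the same cells gave few large differences. Of 12 measured genes on a list of further B cell genes, none was 2-fold higher or lower in either matched comparison, where 1.71% and 1.47% of genes were higher and 0.489% and 6.65% lower. The brightest on average over the pools, the receptor Cd72 and the octamer-binding factor Pou2f2, were at 409 and 429 in the induced pool, 693 and 569 in hypoxia, 473 and 437 in SM22-rtTA, 289 and 384 in the uninduced pool, and 594 and 572 in wild type. Pax5, which encodes a factor that keeps B cell identity, was at 429.9 in the induced pool, 547 in hypoxia, 277 in SM22-rtTA, 321 in the uninduced pool and 383 in wild type. Blk, a kinase of the B cell receptor, was at 417, 545, 323, 320.5 and 453 in the same order. Neither shared the high value of Cd79a in SM22-rtTA, where Pax5 was lowest and just above the floor. Fcer2a, Ly86, Cd55 and Blnk were highest in SM22-rtTA, as were Cd37 and Spib, while Vpreb3 and Ebf1 were not. Over all measured probe sets 19.8% were highest there. For SM22-rtTA against the uninduced pool, the median log2 ratio of the 12 genes was 0.38. Against SM22-rtTA, 2 of the 12 were at least 2-fold lower in the induced pool, Cd37 and Spib, both already in the group defined by its high SM22-rtTA values; 1.47% of genes were lower and 2.83% higher there.

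Of 9 measured further plasma cell genes none was 2-fold apart in either matched comparison, a count near the same shares of 1.71% and 0.489% (induction) and 1.47% and 6.65% (hypoxia) over all genes. Xbp1, a factor of secretory cells that secretory epithelium also uses, was at 3724 in the induced pool against 4634 in the uninduced pool, and at 4302 in hypoxia against 4410.2 in wild type. The syndecan gene Sdc1, which epithelium shares too, was at 1716 against 2297 and at 2199.6 against 1221 in the same pairs. The plasma cell receptor gene Tnfrsf17 was below the floor in all pools. Pou2af1, a coactivator of octamer-binding factors, was at 402 in the induced pool and 485 in SM22-rtTA and below the floor in the other pools.

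Antibody light chains were read in part. Of 19 probe sets given to a single variable segment, chosen after the values were seen, 8 were measured. The kappa segment Igkv8-30, whose probe set 1452463_x_at may read related chains, was at 1791 in the induced pool, 1220.3 in hypoxia, 3644 in SM22-rtTA, 1970.0 in the uninduced pool and 2053 in wild type. It was highest in SM22-rtTA and lowest in hypoxia, 1.68-fold under wild type, while the induced pool was 1.10-fold under the uninduced pool. The 8 probe sets were split: Ighv14-2, Igkv6-14 (297) and the Igkv9-120 probe set 1460423_x_at (456) were highest in SM22-rtTA too, whereas 4 others were highest in hypoxia. Igkv1-117 was at 581 in hypoxia and 449 in wild type and below the floor in the 3 transgenic pools. Igkv6-15 was at 439.6 in hypoxia and 351 in wild type, the other Igkv9-120 probe set, 1427750_at, at 491 and 415, and Iglv1 at 387 and 353, so that these 4 were 1.10-fold to 1.30-fold higher in hypoxia than in wild type. Of the other heavy and light chain constant genes on the list, Ighg3 was the one measured, at 288 in wild type and below the floor elsewhere.

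Of the measured receptor signalling genes 0 of 10, and of the genes of IgA transport, homing and survival 0 of 13, were past 2-fold in the matched comparisons; with the shares over all genes given above, counts this low say nothing particular about these lists. Pigr, the epithelial carrier of polymeric IgA and IgM, was at 610.2 in the induced pool, 459 in hypoxia, 407 in SM22-rtTA, 699.7 in the uninduced pool and 608 in wild type, so its lowest pool was one with high Igha. The brightest signalling genes were Cd81, which encodes a tetraspanin, at 4249 in the induced pool against 5305 in the uninduced pool and at 5508 in hypoxia against 5809 in wild type, and the phosphatase Ptpn6, at 1165 against 1144 and 2427 against 1819.7 in those pairs. Of the transport, homing and survival genes the brightest were the chemokine Cxcl12, between 2021 and 2554 in all pools, and Tgfb1, at 594 in the induced pool and 1249 in SM22-rtTA. Both measured germinal centre genes stayed under 2-fold: Bcl6 was at 1145 in the induced pool against 1009 in the uninduced pool, and Fas at 352 against 656. In hypoxia against wild type they were at 602 against 485 and at 380.1 against 301.2.

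Markers of other white cells moved with some of these differences, and their part was not tested. Over all genes, 1.71% were at least 2-fold higher and 0.489% lower in the induced than in the uninduced pool, and 1.47% higher and 6.65% lower in hypoxia than in wild type. Of 10 measured T cell markers 1, Thy1, was at least 2-fold higher in the induced than in the uninduced pool (767 against a value below the floor), as was 1 of 4 thymocyte markers, Rag1, which rearranges antigen receptor genes in thymocytes and early B cells (788 against a value below the floor). The lymph node adhesion ligand Glycam1 was at 1033 in the induced pool and below the floor in the other 4. Of the same list, Madcam1 and Chst4 were below the floor in every pool, and Cxcl13 was at 498 in the induced pool and 405 in hypoxia. T cell markers summed to 4974 in the induced pool and 2929 in the uninduced pool, where 6 of the 10 were below the floor. Their sum was highest in hypoxia, at 5390, and was 3718 in SM22-rtTA and 3789 in wild type. Neutrophil markers were lower in the induced than in the uninduced pool in 5 of 9, S100a8 at 2174 against 7119 and S100a9 at 1675 against 6283. In wild type, where Igha was high, both of these were below the floor, and hypoxia was higher than wild type in 3 of 9 neutrophil markers. Among NK cell markers Gzma was at 939.9 in hypoxia against 362 in wild type. Of 6 measured macrophage and dendritic markers 0 were past 2-fold in either matched comparison. For SM22-rtTA against the uninduced pool their median log2 ratio was 0.91, with 2 at least 2-fold higher and 0 lower. Over all measured probe sets 1.32% were higher there and 0.666% lower. Their sum was 7168 in SM22-rtTA and 4406 in the uninduced pool, but highest in hypoxia, at 8003.5.

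**Figure D4:**
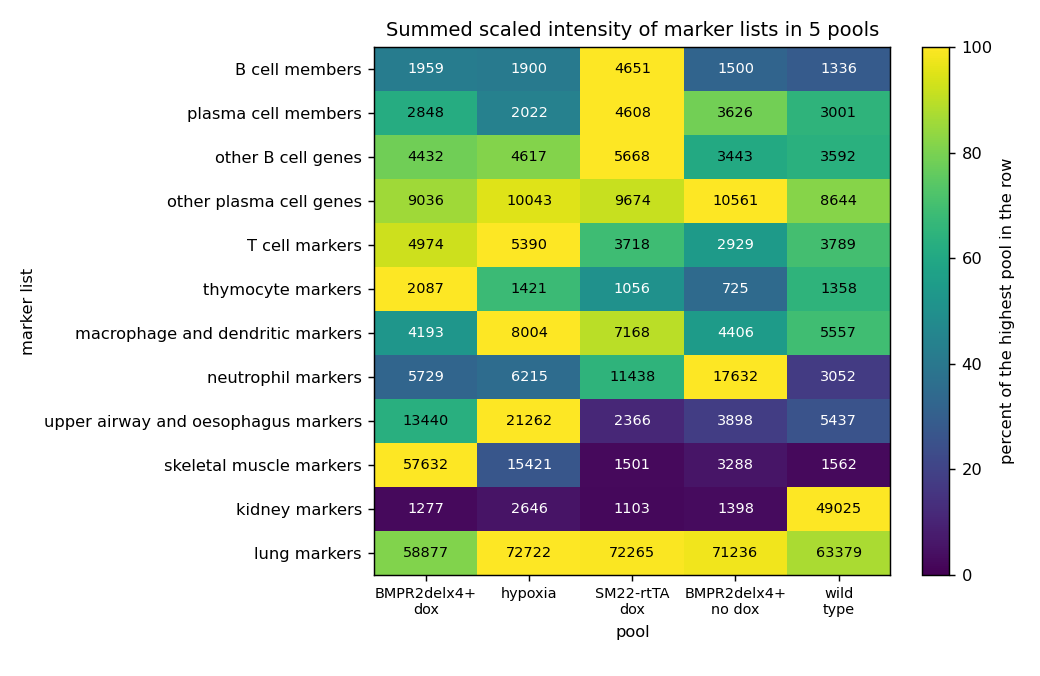
Summed scaled intensity of the measured genes of 12 marker lists in each pool (numbers), coloured as a percent of the highest pool in each row. The 4 B cell members sum to 4651 in SM22-rtTA and to between 1336 and 1959 elsewhere, and kidney and skeletal muscle markers mark the wild-type and induced pools.

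Genes with the most similar pattern over the 5 pools were sought among measured probe sets spanning at least 2-fold, by the root mean square difference of centred log2 intensity, from the brightest probe set of each group. For Cd22 the nearest were Kcnip1, Mtdh, Cit, Slc38a10 and Jkamp, at 0.060 to 0.077, and for Ighm 1427329_a_at they were Ets1, Sh3kbp1, Bex2, Rps18 and Stom, at 0.24 to 0.26. Cd79a and the brightest Igha probe set were added after the values were seen. For Cd79a the nearest was Ms4a1 at 0.27, followed by Angpt1, Cd37, Ighv14-2 and Isl2 at up to 0.35. For Igha it was Igfbp3, which encodes a carrier of insulin-like growth factors, at 0.21, followed by Hsd17b11, Jchain, Pld3 and Themis2 at 0.43 to 0.51. Over 5 arrays many genes can lie this close.

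The 2 elevated-pressure pools were also compared directly. Cd79a was 1.12-fold higher in the induced pool than in hypoxia, and Cd79b and Ms4a1 at least 1.41-fold and 1.79-fold higher, while Cd22 was 1.66-fold lower. Igha was 1.11-fold to 1.69-fold higher in the induced pool and Jchain at least 1.62-fold higher. The members past 2-fold were Ighm 1427351_s_at, 2.56-fold higher, and Ighm 1425385_a_at, at least 2.31-fold lower, where 2.83% of measured probe sets were higher and 2.38% lower. The 2 sides of that pair come from the same gene.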

How the data were processed

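Biotin-labelled total RNA of whole lung was measured, pooled per condition, on 1 array for each of 5 conditions. Groups were taken from the sample titles. The authors deposited linear intensities, 1 per probe set; how they were summarised, background-corrected and scaled is not given in the sources used here. No deposited intensity was under 50, and 9.85% to 12.5% of each array sat at 50.

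From these, log2 intensities were shifted so that the arrays shared a median over the 9047 probe sets at or above the 50th percentile of every array, by -0.041 (induced), 0.081 (hypoxia), -0.11 (SM22-rtTA), -0.067 (uninduced) and 0.13 (wild type). Values were raised to a floor at the 50th percentile of all scaled values. Per pool, 9989 to 10717 single-gene probe sets were above it. Symbols came from the platform annotation, updated by gene ID for 20351 probe sets from a RefSeq table; 691 probe sets with several genes and 1555 with none were not named. A call is a 2-fold difference with floored values. For gene lists the probe set with the highest mean stood for its gene. Motifs were searched on both strands. Calculations used Python 3.11.15, numpy 2.4.6 and pandas 2.3.3. The steps of the calls were run on simulated data with large changes in bright probe sets only. That run does not show how reliable calls are near the floor or near 2-fold.

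No test was run for want of replicates, and precision is limited by having 1 array per group. The members and gene lists were chosen with earlier results of these data known. Named genes were all member probe sets and, from each list, up to 4 genes past 2-fold in a matched comparison, otherwise the 2 brightest; other names were chosen after their values were seen. Alternatives covered scaling, floor, a pseudocount, the fold and the unit (probe set or gene).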

Additional observations from a re-analysis of the deposited data

Results flagged for a closer look

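Ighm 1427351_s_at moved in opposite directions in the matched comparisons. Its log2 ratio was 1.98 for the induced against the uninduced pool and -0.52 for hypoxia against wild type. With 1 array on each side, the difference between these ratios was not tested. The uninduced pool was the lowest of the 5, and with the other references the log2 ratios were 0.44 for induced against SM22-rtTA and -0.14 for hypoxia against the transgenic mean.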

How the results depend on the processing

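Values with no replicates were called moved when they shifted by more than 0.36 on the log2 scale, the SD of the ratio of the 2 transgenic normal-pressure pools over measured probe sets. Of 280 member ratios recomputed under other scalings, floors or a pseudocount of 50, 21 moved, all with another floor or the pseudocount. No median or member ratio past 2-fold changed sign, and neither scaling moved any median of the members. With a floor at the 30th percentile the B cell median for hypoxia against wild type was 0.69, and with a pseudocount 0.60, against 0.16; the largest ratio among normal-pressure pools was 3.14 (Ms4a1) against 2.70 (Cd79a). With a floor at the 70th percentile that ratio was 1.69, the B cell median was 0.00 for induced against uninduced and -0.45 for hypoxia against the transgenic mean. That floor also ended 5 calls at 2-fold: Igha 1421653_a_at in hypoxia against wild type (-0.98), Cd79b in induced against SM22-rtTA (-0.61), and Ms4a1 (-0.60), Jchain (-0.084) and Ighm 1425385_a_at (0.20) in hypoxia against the transgenic mean. Plasma cell medians turned on Ighm. With the brightest probe set per gene they were -0.48 (induced against uninduced), -0.91 (hypoxia against wild type), -0.60 (induced against SM22-rtTA) and -1.02 (hypoxia against the transgenic mean), and the mean of probe sets gave -0.48, -0.91 and -1.02 for the comparisons other than SM22-rtTA. Without Ighm, an alternative added after the data were seen, they were -1.48, -1.43, -0.92 and -1.65 in the order above. At 1.5-fold, 2 members were higher after induction (1 at 2-fold), 2 in hypoxia against wild type (0) and 3 in hypoxia against the transgenic mean (1). All measured probe sets at 1.5-fold gave 616 higher and 349 lower for induced against uninduced (200 and 55 at 2-fold), 899 and 1535 for hypoxia against wild type (154 and 857), 1243 and 1195 for induced against SM22-rtTA (347 and 389), and 1333 and 644 for hypoxia against the transgenic mean (379 and 73). With deposited values that last split was 220 and 165, and the median of all measured probe sets there was -0.14 against 0.00. SM22-rtTA against wild type gave 846 and 707 with deposited values (421 and 1035 after scaling) and 555 and 847 after quantile normalization, with members at 4 higher and 0 lower under all 3. The uninduced pool against wild type gave 737 and 689 with deposited values (374 and 954), where Ighm 1427351_s_at was no longer 2-fold lower, and 497 and 778 after quantile normalization. The induced pool against hypoxia gave 508 and 186 (361 and 304). No paired analysis was possible because each group has 1 array.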
